A study of Mus musculus with 6 samples.

Results

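The genes described here encode potassium channels and their accessory subunits. Every row of the deposited count table whose symbol starts with Kcn was taken, except the antisense transcript Kcnq1ot1, which gave 80 of the 17213 genes. The set was chosen by a measured value, the lower Kcne4 level in the libraries labelled KO. Differences between the groups are therefore given below as a description, and nothing is read from the counts of genes that passed a test. RNA was sequenced from tdTomato+ cells sorted from the dental follicle of mouse mandibular molars at postnatal day 8, with 3 libraries per group. The libraries labelled KO carry the genotype Pth1r(-/-), a conditional knockout of the receptor of PTH and PTHrP, and those labelled Het carry Pth1r(+/-), so that by the labels cells of both groups lack at least 1 intact copy. Both groups received tamoxifen, at day 3 per the series text and at day 8 per the sample descriptions, and both are labelled as PTHrP+ cells. The sources used here give neither the Cre driver nor whether the libraries came from separate animals, so errors measure the spread between these samples only, which may be technical.

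Potassium channels let potassium leave or enter the cell and so set its membrane potential and, through it, calcium entry and cell volume. Voltage-gated (Kv) channels open on depolarisation, calcium-activated channels on a rise of intracellular calcium, inward rectifiers (Kir) hold the resting potential, and tandem-pore (K2P) channels carry background current. Accessory subunits such as the KCNE proteins bind Kv pores and change their gating. In humans, variants of the Kir gene KCNJ2 and of the Kv gene KCNH1 cause syndromes with anomalies of the teeth or gums.

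The targeted gene went against its labels. Pth1r measured 961, 608 and 472 CPM (counts scaled to library size after TMM) in the libraries labelled KO, against 371, 286 and 346 CPM in those labelled Het. Counts over a whole gene do not show whether the deleted exons were transcribed, so each direction below is that of the libraries by their labels. Pthlh, the gene of PTHrP, which marks the sorted cells, was at 298 to 350 CPM against 260 to 344 CPM. Total counts were 51804736 to 66147200 in the libraries labelled KO and 34019925 to 63787622 in those labelled Het. Het replicate 2 stood apart: it had 14668 genes with a count, fewer than the 15175 of Het replicate 1, whose total was smaller, and it was the lowest library for 29.6% and the highest for 28.0% of all tested genes. Genes of the dental follicle were present in every library. Wif1 was the highest of the 8 listed, at 2624 to 3234 CPM in KO replicates and 1952 to 3667 CPM in Het replicates. Besides Pth1r, the listed genes Aspn, at 44.8 to 66.8 CPM against 92.7 to 161 CPM, and Tnn, at 20.3 to 36.8 CPM against 47.0 to 66.9 CPM, did not overlap between the groups, and the other 5 overlapped. Genes of the enamel epithelium were also present at high levels. That list of 7 genes, led by Ambn and Amelx, summed to 5060 to 10650 CPM for the group labelled KO and 4629 to 8465 CPM for the group labelled Het. The 8 follicle genes summed to 4506 to 5417 CPM and 4130 to 5497 CPM, so the levels below are those of the whole sorted pool. In sorted pools, fewer cells of a type and less RNA per cell cannot be told apart.

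A few channel genes held most of the signal. Levels between genes are compared in FPKM, the deposited values scaled by gene length, as means over the 6 libraries. Of the 80 genes, 4 averaged at least 10 FPKM, 26 lay between 1 and 10, 29 between 0.1 and 1, and 21 under 0.1. The 3 highest genes held 49.4% of the summed FPKM of all 80, and the 12 highest held 77.7%. A count was present in all 6 libraries for 43 genes, in 2 to 5 libraries for 30 and in 1 library only for 7. The number of genes with a count was 69, 67 and 65 in KO replicates 0, 1 and 2, against 64, 57 and 56 in Het replicates 0, 1 and 2, the last 2 being the libraries with the smallest totals. Of the 80 genes, 8 were at 0 in all libraries labelled Het and 1, Kcnj9, in all libraries labelled KO. Of the 8, Kcnc4, Kcnj11, Kcnj12, Kcnk10, Kcnq1 and Kcnv1 each had counts in 1 library only. These counts have no share over all genes beside them and the totals differ between the groups, so nothing is read from them. A count of 0 allows up to 3 counts, which was 0.0482 to 0.0843 CPM depending on the library; reads amplified from few cells are not independent molecules, so this limit covers counting error only.

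Kcnk1, which encodes the K2P channel TWIK-1, was the highest. It stood at 53.5, 50.2 and 54.1 FPKM in the libraries labelled KO, against 37.0, 48.1 and 58.3 FPKM in those labelled Het. The groups overlapped, and the highest and the lowest value were both in libraries labelled Het. Kcnj8, the Kir6.1 pore of ATP-sensitive channels of vascular and mural cells, followed at 24.2, 27.6 and 29.3 FPKM against 33.5, 47.0 and 15.7 FPKM. Its lowest library was Het replicate 2, while the other 2 libraries labelled Het lay above all libraries labelled KO. Kcnmb4, an accessory subunit of the large-conductance calcium-activated (BK) channel, was the steadiest of the 12 highest genes, at 22.7, 20.8 and 29.5 FPKM against 24.7, 23.7 and 23.5 FPKM. Kcnk1 was above Kcnj8 within each of the 6 libraries, narrowly in Het replicate 1, although their ranges over libraries overlapped. Kcnj8 was below Kcnmb4 in KO replicate 2 and Het replicate 2 and above it elsewhere. These 3 genes kept ranks 1 to 3 without Het replicate 2.

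**Figure D1:**
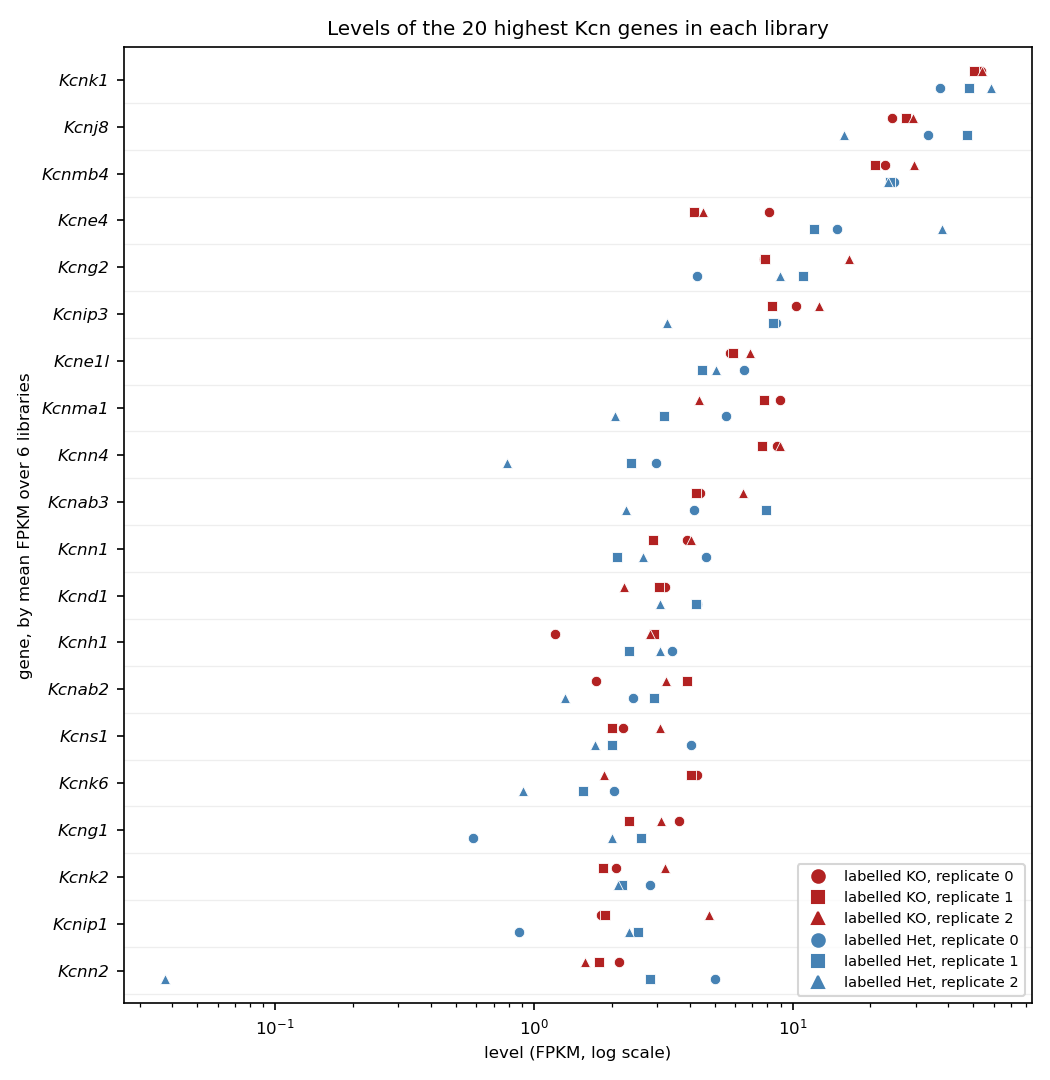
FPKM (log axis) of the 20 Kcn genes with the highest mean, 1 symbol per library, with the libraries labelled KO (red) above those labelled Het (blue) for each gene. Kcnk1, Kcnj8 and Kcnmb4 lead, and the triangle of Het replicate 2 is far to the right for Kcne4 and far to the left for Kcnn4 and Kcnn2.

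Below them, Kcng2 averaged 9.40 ± 4.14 FPKM (SD, n = 6). It encodes a silent Kv subunit that forms no channel alone and alters Kv2 channels. Kcnip3, a calcium sensor that binds Kv4 pores and is also known as a transcriptional repressor, averaged 8.61 ± 3.10 FPKM. Kcne1l, the X-linked KCNE member also called Kcne5, averaged 5.74 ± 0.881 FPKM and varied by 1.53 times between its extreme libraries. Kcnma1, the BK pore, averaged 5.31 ± 2.66 FPKM, and Kcnn4, the intermediate-conductance channel known from red cells and lymphocytes, 5.24 ± 3.60 FPKM. The Kv beta subunit gene Kcnab3 averaged 4.91 ± 1.98, the small-conductance channel gene Kcnn1 3.37 ± 0.973 and the Kv4 pore gene Kcnd1 3.35 ± 0.785 FPKM. From rank 4 to 12 each gene's range overlapped that of its neighbours in the order. Without Het replicate 2, Kcne4 moved from rank 4 to rank 6, with a mean of 8.74 FPKM in place of 13.6 FPKM. Counts do not separate strands as far as the sources say, and in the GENCODE M21 annotation Kcnk1, Kcnmb4, Kcng2, Kcnma1, Kcnab3 and Kcnn1 each share exon bases with a transcript on the opposite strand, so part of their counts may belong to that partner.

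Pores and their partners were unevenly represented. Of the BK accessory subunits with a Kcn symbol, the only ones compared here, Kcnmb4 was abundant. Kcnmb1, the smooth muscle form, had 5, 1 and 0 counts in KO replicates 0, 1 and 2, against 3, 0 and 3 in Het replicates 0, 1 and 2. For ATP-sensitive channels, Kcnj8 was accompanied by Abcc9, which encodes its regulatory partner SUR2, at a mean of 4.40 FPKM. The alternative pair was near absent: Kcnj11 had 42 counts in KO replicate 2 and 0 elsewhere, and Abcc8 averaged 0.0324 FPKM. Kcnq1, a Kv7 pore and the cardiac and epithelial partner of several KCNE subunits, had 58 counts in KO replicate 2 and 0 in the other 5 libraries. The transcript Kcnq1ot1 shares exon bases with Kcnq1 on the opposite strand. Among the pores of the Kv10 to Kv12 group, Kcnh1 led at 2.63 ± 0.783 FPKM, with 1.21, 2.92 and 2.80 FPKM in the libraries labelled KO against 3.42, 2.33 and 3.08 FPKM in those labelled Het. Among the K2P and inward rectifier genes 1 was far above the rest. Of the 10 K2P genes 4 averaged at least 1 FPKM, the next after Kcnk1 being Kcnk6 at 2.45 FPKM. Of the 12 inward rectifiers 2 did, the next after Kcnj8 being Kcnj14 at 1.03 FPKM. The pores of Kv1 to Kv4 were many and low: 4 of 16 averaged at least 1 FPKM, with Kcnd1 the highest. The accessory and silent Kv subunits, which form no channel alone, were better represented, with 8 of 13 and 5 of 8 genes at or above 1 FPKM.

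Summed over classes, the K2P pores came first with 28.5% of the Kcn FPKM, ahead of the Kv accessory subunits with 20.1%, the inward rectifiers with 15.4% and the calcium-activated accessory subunits with 11.6%. Their leading genes were Kcnk1, Kcne4, Kcnj8 and Kcnmb4, in that order. The groups did not overlap in 2 of the 9 classes, a count without a share over all genes beside it. The calcium- and sodium-activated pores, at 7.94% of the Kcn FPKM, summed to 24.3, 20.6 and 19.3 FPKM in KO replicates 0, 1 and 2, against 18.5, 11.8 and 5.72 FPKM in Het replicates 0, 1 and 2. Only Kcnn4 of this class did not overlap in FPKM by itself, at 8.747, 7.649 and 8.933 against 2.965, 2.377 and 0.7885 FPKM. Of its 6 tested members 4 had higher and 2 lower fitted values, so the sum does not describe the whole class. The Kv1 to Kv4 pores, at 4.78%, summed to 9.35, 10.3 and 7.11 FPKM in the libraries labelled KO and to 12.2, 10.5 and 10.8 FPKM in those labelled Het, where KO replicate 1 lay just below Het replicate 1. The K2P sums were 64.9, 62.4 and 64.9 FPKM against 47.4, 56.9 and 63.4 FPKM, and the Kv accessory sums were 35.8, 35.2 and 42.9 FPKM against 41.6, 44.7 and 54.0 FPKM. Both overlapped. The sum over all 80 genes was 213 ± 14.9 FPKM in the libraries labelled KO and 207 ± 11.2 FPKM in those labelled Het (SD, n = 3 each), and the groups overlapped.

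**Figure D2:**
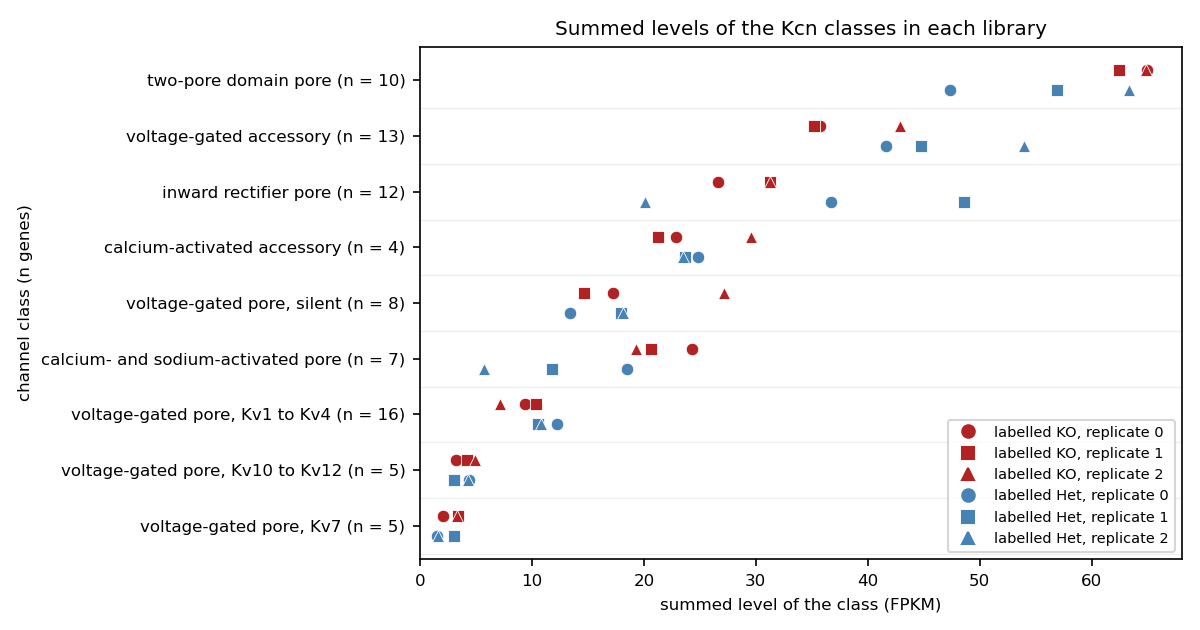
Summed FPKM of the members of each channel class in each library (symbols), with the libraries labelled KO (red) above those labelled Het (blue) and the number of genes in brackets. The calcium- and sodium-activated pores lie at 19.3 to 24.3 FPKM in the libraries labelled KO and at 5.72 to 18.5 FPKM in those labelled Het, and the K2P pores are the highest class.

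Kcne4 (chromosome 1, 78816758 to 78820028 on the plus strand, mm10) is the gene that led to this set. It encodes a KCNE subunit that, in expression systems, inhibits the Kv pores of Kcnq1, Kcna1 and Kcna3. It was at 19.7, 11.0 and 12.6 CPM in KO replicates 0, 1 and 2, against 35.8, 31.6 and 106 CPM in Het replicates 0, 1 and 2. All 3 libraries labelled KO lay below all libraries labelled Het, and Het replicate 2 alone held 48.9% of the CPM summed over the 6 libraries. The mean was 14.4 ± 4.64 CPM for the group labelled KO and 57.7 ± 41.6 CPM for the group labelled Het (SD, n = 3 each). The log2 fold change, labelled KO over labelled Het, was fitted at -2.00 ± 0.48 (SE), and at -1.22 without Het replicate 2. These values chose the set and test nothing.

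The genes of the Kv pores named above, Kcnq1, Kcna1 and Kcna3, averaged 0.0734, 0.4583 and 1.385 FPKM in the same libraries. Kcnq1 was at 0 counts in 5 of 6 libraries, as given above. Kcna1 was at 2.68, 4.37 and 3.10 CPM against 6.14, 4.93 and 5.84 CPM, without overlap, and its log2 fold change was fitted at -0.74 ± 0.48 (SE). Kcna3, the Kv pore of T lymphocytes, was at 0.854, 1.10 and 2.15 CPM against 6.31, 0.418 and 2.08 CPM. Its groups overlapped, and Het replicate 0 held 48.9% of its summed CPM. Of the other KCNE genes, Kcne1l was at 7.37, 7.67 and 6.75 CPM against 8.14, 5.79 and 5.25 CPM, with overlap. Kcne1, the partner of Kcnq1 in heart and inner ear, reached at most 2.56 CPM and was at 0 in Het replicate 0. Kcne2 and Kcne3 reached at most 0.815 and 0.947 CPM and were left untested because of low counts. In FPKM, Kcne4 was the highest KCNE gene in KO replicate 0 and in every library labelled Het. Kcne1l exceeded it in KO replicates 1 and 2, at 5.87 and 6.84 FPKM, where Kcne4 had 4.18 and 4.50 FPKM.

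Markers of vessel cells, which the sorted pool could hold, are given beside Kcne4. The pericyte and smooth muscle list of 10 genes summed to 976, 933 and 777 CPM in the libraries labelled KO and to 1085, 1142 and 1226 CPM in those labelled Het, without overlap. Of its 9 tested members 6 had lower and 3 higher fitted values, and Des was at 0 in all libraries labelled Het. Most of the sum was the smooth muscle actin gene Acta2, at 569, 487 and 525 CPM against 717, 708 and 814 CPM, and among the members Acta2 and Tagln were those whose groups did not overlap. The pericyte genes Pdgfrb and Cspg4 had higher fitted values. Pdgfrb was at 166, 193 and 82.2 CPM against 94.3, 121 and 61.9 CPM, and Cspg4 at 80.4, 68.0 and 32.5 CPM against 47.5, 34.2 and 18.9 CPM, both with overlap. Rgs5 was at 2.55, 18.6 and 2.57 CPM against 6.48, 2.92 and 8.17 CPM. Abcc9 was at 30.6, 36.4 and 37.7 CPM against 36.8, 49.8 and 22.9 CPM, with overlap, and, as for Kcnj8, its lowest library was Het replicate 2. The endothelial list of 7 genes summed to 14.4, 23.7 and 22.3 CPM against 22.9, 27.2 and 45.3 CPM, with overlap. The highest sum was in Het replicate 2, where Egfl7 alone was at 29.5 CPM. Of the 7 endothelial genes 5 had lower fitted values and 2, Tek and Emcn, higher. Pecam1 and Kdr were lower without overlap, and the other endothelial genes overlapped. The part of vessel cells in the Kcne4 values was not tested.

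The stretch of the Kcne4 start region that holds motif letters is shown because PTH1R signals through cAMP, whose transcription factor CREB binds the element TGACGTCA and its core TGACG. The bases come from RefSeq (GRCm38.p6, chr1:78816847-78816876, plus strand, 5′ to 3′). Capitals mark an E-box (CACGTG) at -54 to -49 and an overlapping core element (TGACG) at -50 to -46, counted from the RefSeq start at 78816911. GENCODE starts the gene further upstream, at the position given above, so all 30 bases lie inside an exon of that annotation.

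Kcne4: cctcccggaaCACGTGACGatgcatttctt

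For comparison, the 250 bases before the start of Kcnn4, the gene with the highest fitted fold change, are shown (GRCm38.p6, chr7:24370013-24370262, plus strand). They hold an E-box, in capitals, at -133 to -128, and none of the other letters searched.

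Kcnn4: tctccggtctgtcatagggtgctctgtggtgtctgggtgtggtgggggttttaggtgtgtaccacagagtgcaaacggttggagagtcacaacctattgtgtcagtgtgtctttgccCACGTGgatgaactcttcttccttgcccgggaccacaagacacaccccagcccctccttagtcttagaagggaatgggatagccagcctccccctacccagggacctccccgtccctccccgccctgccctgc

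Searched on both strands in the 250 bases before each start, the core element was in 13 of 84 promoters of the 59 Kcn genes matched (15.5%), against 17.8% of all 32851 promoters. The E-box was in 5 (5.95%) against 6.02%, and the letters TATAAA in 3 (3.57%) against 12.4%. The full element, which holds the core, was in 0 of the 84 and in 1.55% of all, and the E-box and core can share bases as in Kcne4. A match is a description of letters, not of binding.

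Of the 80 genes, 56 passed the filter on low counts and were fitted, and the other 24 averaged at most 0.341 FPKM. With edgeR's quasi-likelihood test 0 of the 56 passed an adjusted p of 0.05, and 0% of the 14632 tested genes did. At an unadjusted p under 0.05 there were 4 of the 56 (7.14%), 3 higher and 1 lower, against 4.29% of all tested genes (2.58% higher and 1.71% lower). DESeq2, which called 0.505% of 17213 genes, called 1 of the 80, Kcne4. Without Het replicate 2, a setting chosen after seeing the data, it called 2, Kcne4 and Kcnn4, against 1.02% of all genes. Fitted values were higher in the libraries labelled KO for 33 and lower for 23 of the 56, where 49.0% of all tested genes were higher and 51.0% lower, and the median log2 fold change was 0.09 against -0.01 for all tested genes. The groups did not overlap for 8 of the 56 (14.3%), 6 higher and 2 lower, where 10.7% of all tested genes did not overlap, 5.84% higher and 4.83% lower. Without Het replicate 2 this held for 18 (32.1%), 11 higher and 7 lower, against 20.7% of all tested genes, 10.5% higher and 10.2% lower. The separation also depended on the unit: of the 8 genes, Kcne4, Kcnn4, Kcnh2 and Kcnh3 did not overlap in FPKM either, while Kcnma1, Kcnk6, Kcnip3 and Kcna1 overlapped there. As this contrast chose the set, nothing is read from these shares.

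**Figure D3:**
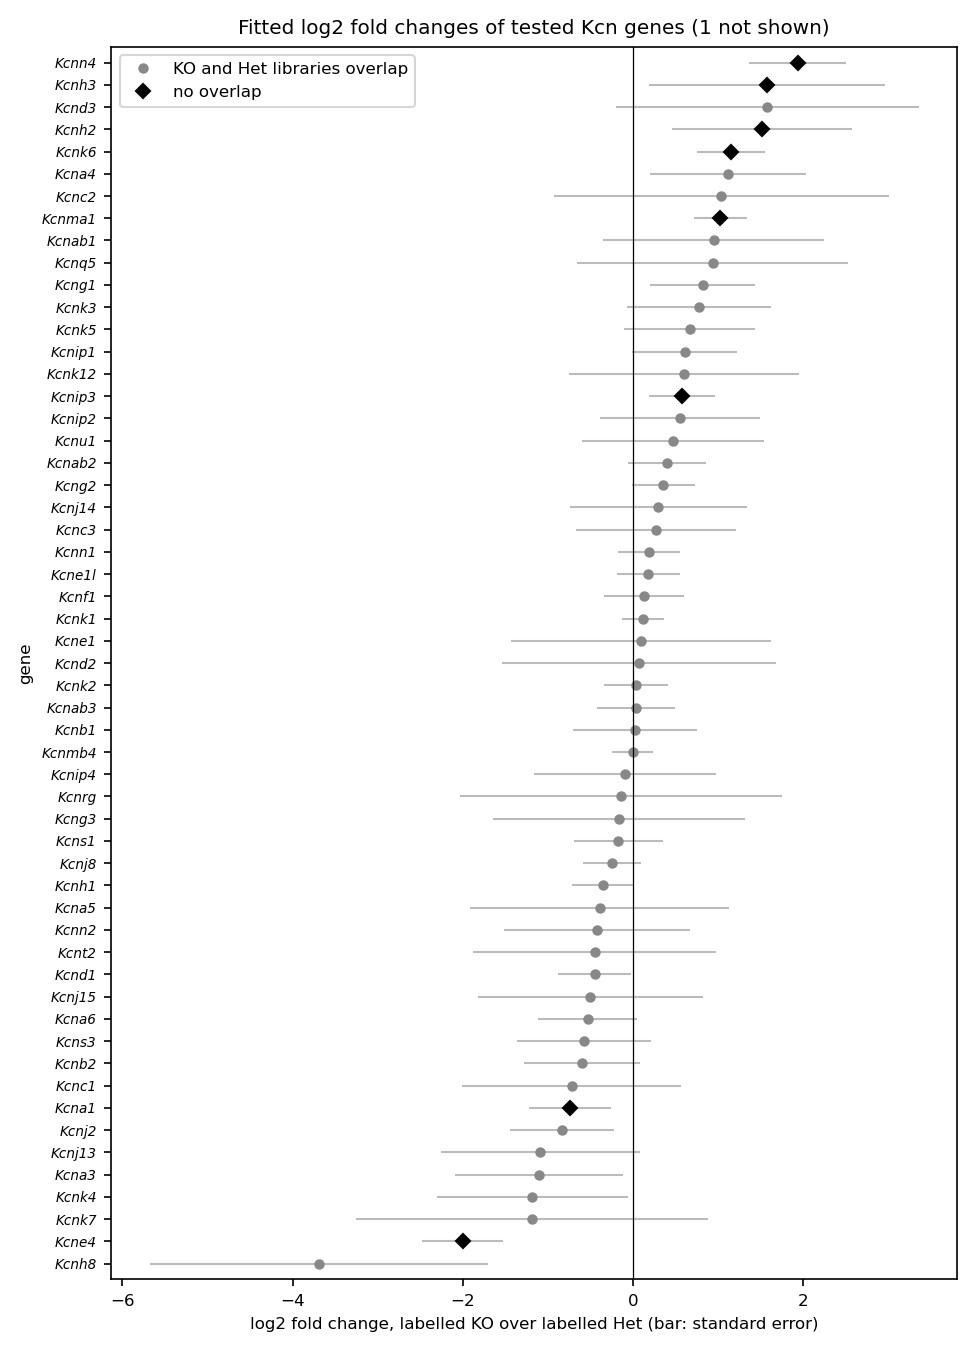
Fitted log2 fold changes of the tested Kcn genes except 1, labelled KO over labelled Het, with bars of 1 standard error and diamonds for the 8 genes whose groups did not overlap. Kcnn4 is highest at 1.94, and Kcne4 at -2.00 is exceeded downward by Kcnh8 at -3.69, which has a wide bar.

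Among the genes with higher values were both large- and intermediate-conductance calcium-activated pores. Kcnn4 (chromosome 7, 24370263 to 24386690) stood at 16.1, 14.4 and 11.0 CPM in the libraries labelled KO, against 5.29, 4.48 and 1.01 CPM in those labelled Het. Each library labelled KO had more than the highest library labelled Het, and Het replicate 2 was the lowest of all. The log2 fold change was fitted at 1.94 ± 0.57 (SE), and at 1.51 without Het replicate 2. Kcnma1 (chromosome 14, 23289431 to 24014491), the BK pore, was at 53.2, 44.5 and 34.7 CPM against 31.6, 17.6 and 15.8 CPM. KO replicate 2 lay just above Het replicate 0 in CPM and below it in FPKM, at 4.34 against 5.56 FPKM. Its log2 fold change was fitted at 1.03 ± 0.31 (SE), and at 0.85 without Het replicate 2. Its accessory subunit Kcnmb4 overlapped between the groups, at 19.1, 17.9 and 18.6 CPM against 20.1, 20.2 and 15.2 CPM. The small-conductance gene Kcnn1 stood at 16.1, 12.3 and 14.0 CPM against 18.6, 8.80 and 9.58 CPM, with overlap. Kcnn2, of the same family, had 2.15, 1.79 and 1.58 FPKM against 5.01, 2.82 and 0.0377 FPKM, so that Het replicate 2 was the lowest library and the other libraries labelled Het the highest.

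Kcnn4 is known in red cells, leukocytes and epithelia, so their markers stand beside it. The leukocyte list of 8 measured genes, led by Lyz2, summed to 28.3, 91.6 and 141 CPM in KO replicates 0, 1 and 2, against 20.1, 88.7 and 39.0 CPM in Het replicates 0, 1 and 2. These sums overlapped between the groups. The erythroid list of 4 measured genes, led by Alas2, summed to 12.8, 43.7 and 41.5 CPM against 9.15, 21.3 and 15.2 CPM, also with overlap. All 8 leukocyte genes and 2 of 3 tested erythroid genes were fitted higher. The epithelial sums of those libraries, 8837, 5060 and 10650 CPM, overlapped with 7728, 8465 and 4629 CPM. Of 3 genes listed for odontoblasts, Dmp1, which osteocytes and cementoblasts also express, was at 536, 248 and 138 CPM against 72.4, 29.01 and 84.8 CPM, without overlap. The dentin gene Dspp was at 18.1, 16.9 and 17.1 CPM against 21.4, 10.2 and 24.9 CPM, and it and Phex overlapped. The part of these cells in the Kcnn4 and Kcnma1 values was not tested.

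**Figure D4:**
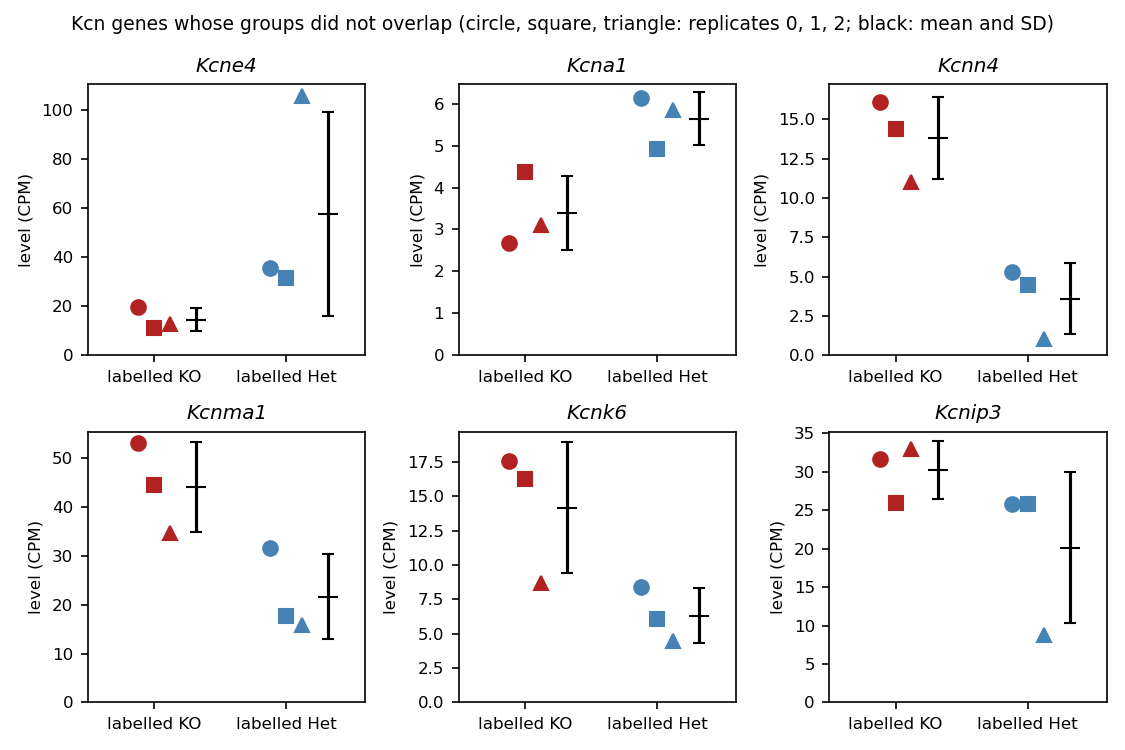
CPM of the 6 Kcn genes with the highest mean among the 8 whose groups did not overlap, with the libraries labelled KO on the left and those labelled Het on the right of each panel (symbols are replicates, black bars the mean and SD). Kcne4 and Kcna1 are lower and Kcnn4, Kcnma1, Kcnk6 and Kcnip3 higher in the libraries labelled KO, and for Kcnk6 and Kcnip3 the nearest libraries of the groups almost touch.

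Kcnk6 (chromosome 7, 29221926 to 29232515), the K2P channel TWIK-2, was at 17.6, 16.3 and 8.71 CPM against 8.43, 6.10 and 4.44 CPM. KO replicate 2 lay only just above Het replicate 0 in CPM, and below it in FPKM at 1.87 against 2.05 FPKM. Its log2 fold change was fitted at 1.16 ± 0.40 (SE), and at 0.97 without Het replicate 2. Kcnip3 was at 31.7, 25.9 and 33.0 CPM against 25.8, 25.8 and 8.79 CPM. Its separation rested on KO replicate 1 lying barely above Het replicates 0 and 1, and in FPKM, at 8.31, it lay below both. The fitted log2 fold change was 0.58, and 0.23 when Het replicate 2 was left out. Kcnh2, the ERG channel of cardiac repolarisation, was at 5.55, 2.42 and 3.01 CPM against 1.83, 1.92 and 0.0562 CPM. Its log2 fold change was fitted at 1.52 ± 1.06 (SE), and at 0.96 without Het replicate 2, in which it had 2 counts. Kcnh3 was at 2.27, 1.79 and 2.19 CPM against 1.67, 0.390 and 0 CPM, and its exons overlap Mcrs1 on the opposite strand. The silent subunit gene Kcng1 was at 8.01, 4.995 and 4.72 CPM against 1.25, 5.46 and 3.32 CPM, with overlap through Het replicate 1. Kcnh6, left untested because of low counts, had 1, 27 and 8 counts in KO replicates 0, 1 and 2, and 0 in all libraries labelled Het.

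On the lower side, few genes besides Kcne4 and Kcna1 held a common direction across libraries. Kcnh8, a Kv12 pore, was at 0.115, 0 and 0.381 CPM against 0.0161, 0.473 and 5.98 CPM. Het replicate 2 held 85.9% of its summed CPM, and its fitted log2 fold change was -3.69 with that library and -0.57 without it. Kcnj2, the Kir2.1 pore of the resting potential, was at 2.09, 4.98 and 3.43 CPM against 10.9, 3.48 and 4.30 CPM. Here Het replicate 0 was the high library, and the fitted log2 fold change was -0.83 with it and -0.15 without it. For Kcna3 these values were -1.10 and 0.14. Kcnd1, a Kv4 pore, was at 6.07, 5.57 and 3.52 CPM against 7.95, 7.57 and 5.17 CPM, with overlap. For Kcnj8 the log2 fold change was fitted at -0.24 ± 0.34 (SE), and at -0.56 without Het replicate 2.

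By class, 6 of 8 tested K2P pores and 8 of 11 tested Kv accessory genes had higher fitted values, and 4 of 6 calcium- and sodium-activated pores did. Of the Kv1 to Kv4 pores 6 of 13 were higher and 7 lower, and of the inward rectifiers 1 of 5 was higher and 4 were lower. Without Het replicate 2 a larger set of inward rectifiers passed the filter, with 4 of 7 higher. Of the 5 tested with all libraries, only Kcnj13 changed sign, from a fitted -1.09 to a log2 difference of mean CPM of 0.265. Kcnj8, Kcnj2 and Kcnj15 stayed lower. Without Het replicate 2, which also changed the numbers tested, 7 of 9 K2P pores and 7 of 12 Kv accessory genes were higher. So were 4 of 7 calcium- and sodium-activated pores and 6 of 15 Kv1 to Kv4 pores. Over 50% of the summed CPM lay in 1 library for 4 of the 56 tested genes (7.14%), against 3.18% of all tested genes, and for 22 of the 80. Of the 4, Kcnh8, Kcna5 and Kcnj13 peaked in Het replicate 2 and Kcnc2 in KO replicate 1. In Het replicate 2 were the lowest values of 20 of the 56 tested Kcn genes (35.7%), against 29.6% of all tested genes, and the highest values of 10 (17.9%), against 28.0%. It had 0 counts for 24 of the 80.

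Genes whose products work beside the channels were given as 4 lists. Of 12 tested channel partners without a Kcn symbol 3 had higher and 9 lower fitted values, and 8 of 14 were higher without Het replicate 2. Among them were calmodulin genes, whose product is the calcium sensor of KCa2 and KCa3.1 pores, with Calm2 at 457, 383 and 491 CPM against 414, 414 and 1281 CPM. Calm3 stood at 518, 406 and 439 CPM against 438, 349 and 430 CPM. Of 20 tested genes of the sodium pump and cation-chloride cotransport 12 were higher and 8 lower, and 10 of 21 were higher without Het replicate 2. The pump subunit gene Atp1b3 was at 262, 281 and 297 CPM against 392.0, 221 and 236 CPM. Fxyd1, a pump regulator, was at 59.2, 35.6 and 43.7 CPM against 47.1, 35.7 and 37.1 CPM. Of the HCN channels, which cyclic nucleotides gate, Hcn3 led at 5.99, 5.54 and 2.30 CPM against 5.15, 8.97 and 10.3 CPM, and 2 of 3 had higher fitted values. All 3 organellar channel genes had lower fitted values, and 2 of 3 without Het replicate 2. Among them Tmem175, the lysosomal channel, was at 64.5, 61.0 and 71.2 CPM against 81.3, 58.1 and 92.1 CPM, and Tmem38a, a channel of the endoplasmic reticulum, at 21.5, 22.5 and 25.0 CPM against 29.2, 29.96 and 38.1 CPM, without overlap. In these 4 lists 0 genes passed edgeR's quasi-likelihood test at an adjusted p of 0.05, where 0% of all tested genes did, and 0 passed DESeq2, which 0.505% of all genes passed. At an unadjusted p under 0.05 there was 1 of 12 partners, 1 of 20 pump and cotransport genes, 0 of 3 HCN channels and 1 of 3 organellar channels, against 4.29% of all tested genes.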

How the data were processed

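RNA of sorted follicle cells was amplified with a low-input kit and made into libraries with Nextera XT, per the labels' protocols. The submitters' processing notes list the mm10 build, HTSeq, Cufflinks, Cuffdiff, DESeq2, TopHat2 2.0.13 and Bowtie2 2.2.1, without their roles. For annotation and strand setting, nothing is given in the sources used here. The authors deposited whole-number counts per gene symbol, estimated counts (rounded here, an alternative) and FPKM. The estimated count table lists 14 further Kcn symbols, at most at 1 estimated count in any library. The deposited scaled counts and rlog values were not used.

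Counts were fitted with edgeR 4.0.16 in R 4.3.3 (filterByExpr, TMM, quasi-likelihood, two-sided), adjusted by Benjamini-Hochberg over all tested genes. DESeq2 1.42.0, limma 3.58.1 on log2(FPKM + 1) and log2(FPKM + 0.1), voom, other scalings, filters and left-out libraries were alternatives. On the log2(FPKM + 1) scale, fold changes of low genes are understated. CPM uses TMM-scaled totals, and standard errors come from the F statistic. Scripts were tested on simulated data.

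Named were Kcne4, the 12 genes of highest mean FPKM, the leading gene of each class, the KCNE genes, Kcnj8, and up to 6 genes per direction by unadjusted p with mean log2 CPM of at least 0. Kcnh3, Kcnh6, Kcnq1, Kcnj11, Kcnmb1, Kcnn2, Kcnj9, Kcnj14, Kcna5, Kcnj13 and Kcnc2 were added after their values were seen, as were the markers named. Of the partner lists, up to 3 genes per list by FPKM were named, plus Abcc8 and Abcc9. Some genes that these rules name are not reported here. Members and lists were chosen with earlier results of these data known. Positions are from GENCODE M21, which uses the mm10 assembly, and sequences from RefSeq.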

Additional observations from a re-analysis of the deposited data

How the results depend on the processing

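As the lower Kcne4 level in this contrast chose the set, the sign of Kcne4 under other settings tests nothing. The Kcne4 log2 fold change stayed negative under every alternative run. It ranged from -2.29 to -1.22 when each library was left out, was -1.29 in limma-voom with quality weights and -1.65 to -2.01 in the other fits, and was -1.22 in DESeq2 without Het replicate 2, chosen after seeing the data. The edgeR fit called 0 Kcn genes and 0 genes in all, and leaving out libraries gave 0 Kcn genes and 0 to 1 in all. DESeq2 called 1 Kcn gene, Kcne4, of 87 genes, and 2 (Kcne4 and Kcnn4) of 175 without Het replicate 2. As this contrast chose the set, nothing is read from these calls. Over all genes, limma-voom called 1, as did limma-trend with a pseudocount of 1, with 0.1 and with a minimum of 1 FPKM. The count of Kcn genes with a higher fitted value was 33 of 56, 37 of 56 with the replicate block, and 32 to 39 of 61 to 64 when each library was left out. In the other count fits that applied a filter it was 32 of 56 with RLE scaling, 31 of 56 in limma-voom, 32 of 57 with estimated counts and 28 of 45 with the stricter filter. It was 51 of 80 without a filter, 50 of 80 in DESeq2 with and without Het replicate 2, 50 and 54 of 80 with FPKM pseudocounts of 1 and 0.1, and 20 of 32 with a minimum of 1 FPKM. The number of Kcn genes at or above 1 FPKM was 30; it was 59 at a minimum of 0.1 and 4 at 10. The count whose groups do not overlap was 8, and 18 without Het replicate 2.

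In a fit blocked on the replicate number, the median log2 fold change of the tested Kcn genes was 0.30 in place of 0.09, and 0 genes were called. The median of all tested genes in that fit is not given beside it, so nothing is read from the shift. Same-numbered libraries deviated together with correlations of 0.169, 0.0746 and 0.0694, not all over 0.1, so the numbers were not taken to pair the samples. Each library correlated best with its own number, which is a hint from the data and not from the design. Of 21 other named genes 14 kept their sign under every alternative that gave them a value, among them Kcnn4, Kcnma1 and Kcnk6 under all 17, while low genes such as Kcna1 had no value under the FPKM minimum. The sign was lost most often for Kcnmb4 (7 settings) and Kcnab3 (5). With 3 libraries per group, genes under 1 FPKM rested on few counts.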

Other observations

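The antisense transcript Kcnq1ot1, left out by the rule, measured 87.9, 143 and 82.1 CPM in the libraries labelled KO and 95.8, 122 and 87.5 CPM in those labelled Het.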
